A study of Mus musculus with 2 samples.

Results

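The genes described here are 9 genes that take up, store, export or control iron, chosen by symbol as *Hamp*, *Hamp2*, *Trf*, *Tfrc*, *Tfr2*, *Fth1*, *Ftl1*, *Slc40a1* and *Slc39a14*. They are 9 of the 34745 genes listed in the deposited table, and all 9 passed the minimum of 10 counts over both libraries that 13561 genes passed. RNA-seq was done on the liver of male mice, 8 to 10 weeks old, after 2/3 PH, a surgery that removes about 70% of the liver and starts liver regeneration (LR). The miR-182-5p KO mice were heterozygous, with the knockout on a single allele, and came from a mouse resource bank, and the controls were WT mice. Both groups had the surgery, and the study's text gives day 3 after 2/3 PH for the samples. Each genotype was represented by 1 library, and how many mice went into a library is not given in the sources used here. With 1 library per genotype no test between genotypes was possible: the differences below compare 2 libraries and have no replicate check, and all intervals cover counting error only. *Mir182* has no row of its own among the genes listed, so no value of the targeted gene stands behind the labels KO and WT here.

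The liver is the main site of iron storage and the source of the hormone that sets iron levels in the blood. Hepatocytes take up iron bound to transferrin through transferrin receptors, and free iron through the importer ZIP14, and they store it in ferritin, a hollow protein shell of heavy and light chains. Hepcidin, secreted by hepatocytes, binds the exporter ferroportin and causes its degradation, which keeps iron inside cells. Iron regulatory proteins bind hairpins called iron-responsive elements in mRNAs when iron is low: they block translation of ferritin from hairpins in its 5′ UTR and stabilise the mRNA of transferrin receptor 1 from hairpins in its 3′ UTR.

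Both libraries were of like depth, with 13247497 counts in KO and 13163348 in WT, but the share of mitochondrial genes was 51.7% in KO and 31.0% in WT. Values below are therefore CPM, counts brought to a common library size, scaled by TMM, a method that sets the bulk of genes to no change (median log2 fold change of all tested genes 0.00). Scaling by total counts shifts that median to -0.60, so small positive values turn negative with it. Values are with TMM unless total counts are named, and for most gene lists the number past 2-fold with total counts stands beside the number with TMM. In liver tissue, fewer cells of a type and less RNA per cell cannot be told apart. The 7 hepatocyte markers had a median of -0.07 on the log2 scale, with *Alb* at -0.07, and of these *Apob* alone was past 2-fold, at -2.96. With total counts *Cps1* was 2-fold lower as well, at -1.23. The share of all tested genes that was 2-fold lower was 9.94%, or 26.6% with total counts.

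The elements that tie these genes to iron are shown first, because 4 of the 9 transcripts carry them. Capitals mark the loop of each iron-responsive element, and the sequences are sense-strand bases of GENCODE M21 transcripts (GRCm38).
*Fth1*, 5′ UTR, chr19:9982732-9982760, plus strand: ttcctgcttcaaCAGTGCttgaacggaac
*Ftl1*, 5′ UTR, chr7:45459779-45459807, minus strand: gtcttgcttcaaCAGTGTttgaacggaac
*Slc40a1*, 5′ UTR, chr1:45925465-45925493, minus strand: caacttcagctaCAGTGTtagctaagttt
*Tfrc*, 3′ UTR, chr16:32631219-32631247, plus strand: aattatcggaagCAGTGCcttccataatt
*Tfrc*, 3′ UTR, chr16:32631598-32631626, plus strand: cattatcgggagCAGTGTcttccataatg
*Tfrc*, 3′ UTR, chr16:32631663-32631691, plus strand: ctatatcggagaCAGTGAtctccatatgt
*Tfrc*, 3′ UTR, chr16:32631710-32631738, plus strand: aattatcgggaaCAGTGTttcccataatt
Hairpins of this form (the loop CAGTGN, 5 paired bases on each side and a C before them) were found in the 5′ UTR of 31 of 21741 genes and in the 3′ UTR of 129. Among the 9 genes, the 5′ UTR form was found in both ferritins and ferroportin, and the 3′ UTR form in *Tfrc*.

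Hepcidin has 2 genes in the mouse, and their upstream bases are shown because both genes differed by nearly the same amount between the libraries. The 200 bases before each RefSeq transcript start (GRCm38.p6, minus strand) are given with the BMP-response element of *Hamp* and its aligned letters in *Hamp2* in capitals, followed by a motif for STAT factors, TTCNNNGAA, also in capitals.
*Hamp*, chr7:30944030-30944229: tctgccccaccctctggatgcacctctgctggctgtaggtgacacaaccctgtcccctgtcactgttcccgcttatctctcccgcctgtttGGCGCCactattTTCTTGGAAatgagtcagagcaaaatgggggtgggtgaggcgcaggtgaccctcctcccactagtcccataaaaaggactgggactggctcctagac
*Hamp2*, chr7:30924182-30924381: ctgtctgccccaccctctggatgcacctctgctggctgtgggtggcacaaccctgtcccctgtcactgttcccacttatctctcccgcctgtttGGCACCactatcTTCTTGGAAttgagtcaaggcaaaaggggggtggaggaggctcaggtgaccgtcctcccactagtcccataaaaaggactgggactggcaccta
The 2 stretches matched at 183 of 197 aligned bases. In *Hamp* the element reads GGCGCC and begins 109 bases before the start, and the aligned letters of *Hamp2* differ by G4A, counted from 1 at the first letter of the element. The letters GGCGCC stand on either strand in the 250 upstream bases of 9.59% of 32851 RefSeq promoters, and TTCNNNGAA in 7.02%. The searched E-box CACGTG and the letters TTGCGCAA were in neither window.

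Levels per kilobase of transcript spread over about 3 orders of magnitude in both libraries. In WT the order was *Ftl1* (3103 CPM per kb), *Trf* (3046), *Hamp* (1385), *Fth1* (996), *Hamp2* (61.8), *Tfr2* (44.2), *Slc39a14* (22.3), *Slc40a1* (13.3) and *Tfrc* (3.32), and the counting intervals of neighbours did not overlap. In KO, *Trf* (1664 CPM per kb) stood above *Ftl1* (1310), *Hamp* (1174) and *Fth1* (657). The intervals of *Hamp2* (52.8 CPM per kb, 46.4 to 59.8) and *Tfr2* (49.98, 47.5 to 52.5) overlapped in KO, so these neighbours were not separated there. Together the 9 genes made up 2.26% of WT and 1.16% of KO counts once mitochondrial genes were left out, and 1.56% and 0.563% with them included. Their summed TMM level differed by -0.87 on the log2 scale, within 2-fold. Most of these counts came from *Trf* and *Ftl1*, with 126947 and 48685 of 205144 in WT and 46003 and 13635 of 74549 in KO.

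**Figure D1:**
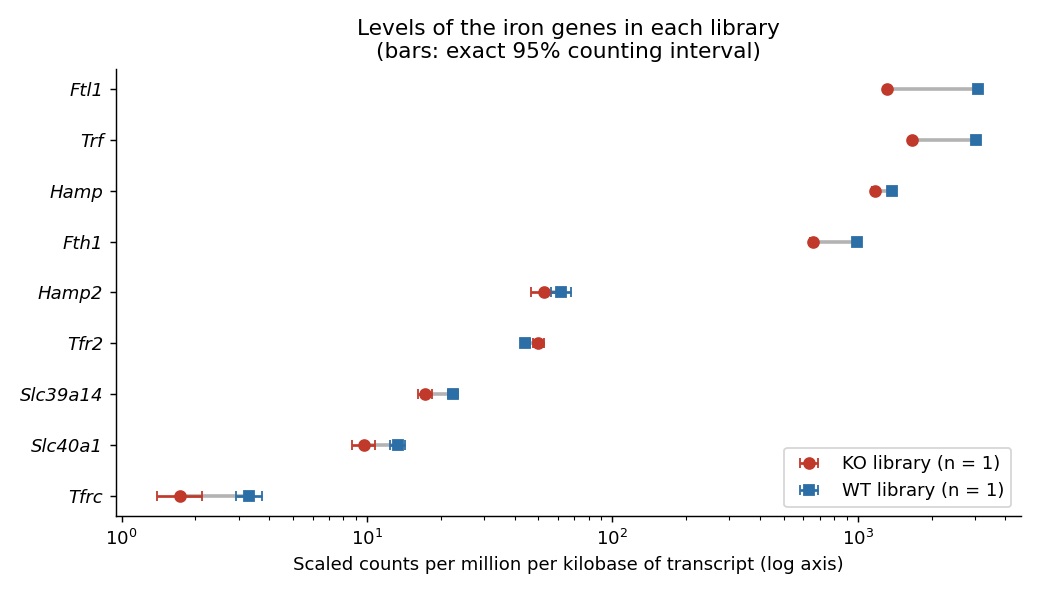
Level of each gene in the KO (circle) and WT (square) library, as TMM-scaled CPM per kilobase of transcript on a log axis, with exact 95% Poisson counting intervals. WT stands to the right of KO for 8 of 9 genes, and *Tfr2* is the exception.

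Of the 9 genes, *Ftl1* was the member past 2-fold, and it was lower in KO. No member was 2-fold higher. Over all 13561 tested genes, 1283 (9.46%) were 2-fold higher and 1348 (9.94%) were 2-fold lower, so 1 of 9 is close to the background share. On the log2 scale 8 of 9 members lay below 0, with a median of -0.46, against 6778 of 13561 tested genes and a median of 0.00. With total counts, 624 genes (4.6%) were 2-fold higher and 3605 (26.6%) were 2-fold lower, and the lower ones included 5 members: *Fth1*, *Ftl1*, *Slc40a1*, *Tfrc* and *Trf*.

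**Figure D2:**
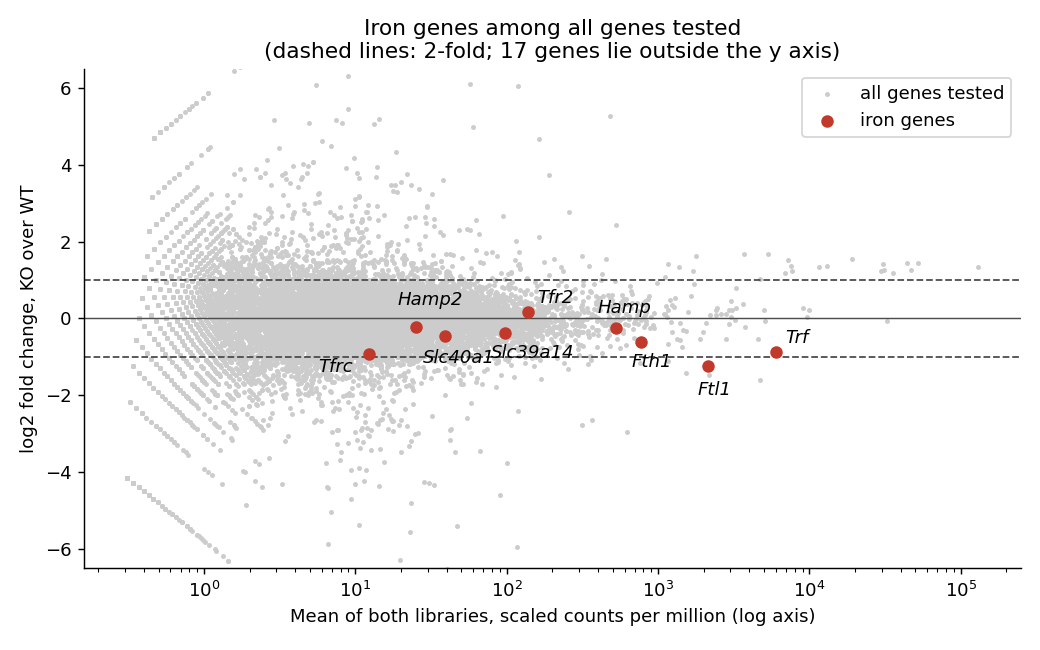
Log2 fold change of KO over WT against the mean level of both libraries (TMM-scaled CPM, log axis) for all genes tested (grey) and the 9 iron genes (red), with dashed lines at 2-fold. *Ftl1* lies below the lower line at -1.24, and *Tfr2* lies above 0 at 0.18.

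Both hepcidin genes had slightly lower levels in KO, within 2-fold. *Hamp* (ENSMUSG00000050440, chr7:30942368-30944032, minus strand), which encodes hepcidin, had 5174 counts in KO and 9206 in WT, or 481 and 568 CPM. Its log2 fold change was -0.24 (95% counting interval -0.29 to -0.19), a 1.18-fold lower level in KO. *Hamp2* (ENSMUSG00000056978, chr7:30922389-30924681, minus strand), the second hepcidin gene of the mouse, had 248 counts in KO and 438 in WT, or 23.1 and 27.0 CPM, with a log2 fold change of -0.23 (-0.46 to -0.0003). The ratio of *Hamp* to *Hamp2* counts was 20.9 in KO and 21.02 in WT, and the difference of their log2 fold changes was -0.01 (-0.24 to 0.22), so the 2 genes could not be told apart in how they differed between the libraries. Their transcripts are 94.6% identical, and 15.8% of the 51-base words of *Hamp* occur in *Hamp2*, so reads may be split between them. Summed over both genes, 5422 counts in KO and 9644 in WT gave the same log2 fold change of -0.24.

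Genes that control hepcidin in hepatocytes showed little shift as a list. Of 17 tested regulators of the BMP and hemojuvelin branch, 16 were within 2-fold and 1 was 2-fold lower, with a median of -0.09. Of all 13561 tested genes, 10930 were within 2-fold and 9.94% were 2-fold lower, with a median of 0.00. With total counts 2 of the 17 were 2-fold lower, against 26.6% of all tested genes. The second was *Acvr1*, a BMP receptor, at -1.43. The gene lower under both scalings was *Id1*, a BMP target, with 45 counts in KO and 142 in WT (log2 fold change -1.06, -1.58 to -0.57). *Atoh8* of the same list stood at 0.33 (0.10 to 0.57), and at -0.27 with total counts. *Smad6* (-0.40, -1.26 to 0.40) and *Smad7* (-0.11, -0.82 to 0.57) were within 2-fold under both scalings. Activity of this branch was not tested. *Fgl1*, the secreted hepatocyte factor with the highest level in the list, stood at -0.13. *Hfe2*, which encodes the co-receptor hemojuvelin, had 1379 counts in KO and 2219 in WT (-0.09), and *Tmprss6*, which encodes the protease that cleaves it, had 1723 and 2789 (-0.10). *Hfe*, the gene mutated in hereditary hemochromatosis, had 228 and 390 counts (-0.18). *Bmp6*, the main iron-sensing ligand, had 2 counts in each library, which is under the floor of 3 counts, so no fold is given.

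Inflammation raises hepcidin through interleukin-6 and STAT3, and 6 genes of that branch were tested. *Socs3*, a STAT3 target that feeds back on the pathway, was 2-fold higher in KO, with 305 counts against 228 (log2 fold change 1.01, 0.76 to 1.27), and it did not reach 2-fold with total counts, at 0.41. *Stat3* itself stood at 0.05 (-0.10 to 0.20), and at -0.55 with total counts. The receptor gene *Il6ra* stood at -0.97 (-1.29 to -0.68), and with total counts it was past 2-fold, at -1.57. *Il6* was listed at 0 in both libraries, which allows up to 3 counts in each. Of 9 acute-phase genes, 1 was 2-fold higher, *Saa3* at 1.21, against 9.46% of all tested genes, and the median was -0.31. Below 0 lay 6 of the 9, *Saa1* (-0.34) and *Saa2* (-0.33) among them. With total counts *Saa3* stood at 0.61 and none of the list was 2-fold higher. The 2-fold lower ones were 2 fibrinogen genes, *Fgg* and *Fga*, against 26.6% of all tested genes.

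*Trf* (ENSMUSG00000032554, chr9:103204001-103230444, minus strand) encodes transferrin, the iron carrier of plasma, and was among the most counted genes of the liver, 14th in WT and 25th in KO. It had 46003 counts in KO and 126947 in WT, or 4279 and 7832 CPM. Its log2 fold change was -0.87 (-0.89 to -0.86), a 1.83-fold lower level in KO. Its ratio to *Alb*, another abundant secreted product of hepatocytes, was 0.135 in KO and 0.237 in WT, a difference of -0.81 (-0.82 to -0.79) that does not depend on scaling. Of its 51-base words, 79.7% also occur in *Gm20425*, an overlapping annotated gene that had 17 counts in KO and 8 in WT, few beside its own.

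The transferrin receptors stood apart from each other. *Tfrc* (ENSMUSG00000022797, chr16:32608920-32632794, plus strand) encodes transferrin receptor 1, which is abundant on dividing and erythroid cells. It had 91 counts in KO and 263 in WT, or 8.46 and 16.2 CPM, the lowest level of the 9 genes per kilobase in both libraries. Its log2 fold change was -0.94 (-1.30 to -0.59), and the interval includes 2-fold. *Tfr2* (ENSMUSG00000029716, chr5:137569840-137587481, plus strand), the hepatocyte receptor that senses iron-laden transferrin upstream of hepcidin, had 1572 counts in KO and 2098 in WT, or 146 and 129 CPM. Its log2 fold change was 0.18 (0.08 to 0.27) with TMM and -0.43 with total counts, so its direction depends on the scaling. The ratio between the receptors does not: there were 17.3 *Tfr2* counts for each *Tfrc* count in KO and 7.98 in WT, a difference of -1.11 (-1.47 to -0.76) for *Tfrc* against *Tfr2*.

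Markers of dividing and of erythroid cells, which carry much transferrin receptor 1, are given beside it. All 6 proliferation markers lay below 0, with a median of -1.04 and summed levels of 136 CPM in KO and 225 in WT. Of them 3 (*Top2a*, *Ccnb1* and *Cdk1*) were 2-fold lower, or all 6 with total counts. Among all tested genes 9.94% were 2-fold lower and 9.46% higher, or 26.6% and 4.6% with total counts. Set against their summed counts, *Tfrc* differed by -0.21 (-0.56 to 0.15). Of 7 erythroid markers 6 lay below 0, with a median of -0.56, while their summed level was 86.8 CPM in KO and 82.7 in WT. *Hbb-bs*, a globin, was 2-fold lower and *Alas2*, the erythroid enzyme that starts heme synthesis, was 2-fold higher at 1.22. With total counts *Alas2* stood at 0.61, and 4 of the 7 were 2-fold lower. Set against the summed erythroid counts, *Tfrc* differed by -1.01 (-1.37 to -0.64). That value leans on *Alas2*, the 1 marker above 0, which gave 535 of the 933 summed counts in KO and 347 of 1340 in WT. The part of dividing and erythroid cells in the *Tfrc* value was not tested.

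The light chain of ferritin carried the largest difference of the 9 genes. *Ftl1* (ENSMUSG00000050708, chr7:45457944-45459884, minus strand), the ferritin light chain that helps iron to mineralise inside the shell, had 13635 counts in KO and 48685 in WT, or 1268 and 3004 CPM. Its level was 2.37-fold lower in KO, with a log2 fold change of -1.24 (-1.27 to -1.22), and it was past 2-fold under each scaling tried. *Fth1* (ENSMUSG00000024661, chr19:9982703-9985092, plus strand), the heavy chain that oxidises iron as it enters, had 6558 counts in KO and 14995 in WT, or 610 and 925 CPM, and its log2 fold change was -0.60 (-0.64 to -0.56). The ratio of light to heavy chain counts was 2.08 in KO and 3.25 in WT, a difference of -0.64 (-0.69 to -0.59) that no scaling alters. It uses the counts of *Ftl1* without the copies named below.

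The *Ftl1* value is uncertain, and so is the ratio of the chains that uses it. This is because 90.4% of the 51-base words of the *Ftl1* transcript also occur in 16 other annotated genes, pseudogenes of it among them. Of these, 2 are listed. *Gm10116*, which GENCODE M21 calls *Ftl1-ps1* and which holds 73.1% of the words, had 3192 counts in KO and 8033 in WT, a log2 fold change of -0.74. *Ftl2-ps* had 1 count in KO and 2 in WT. Summed over *Ftl1* and both listed copies, 16828 counts in KO and 56720 in WT gave -1.16, which is still past 2-fold. How the authors placed reads that match several genes is not given in the sources used here. For *Fth1* the shared words came to 6.48%.

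*Slc40a1* (ENSMUSG00000025993, chr1:45908068-45926523, minus strand) encodes ferroportin, the iron exporter that hepcidin removes, which macrophages carry as well as hepatocytes. It had 352 counts in KO and 728 in WT, or 32.7 and 44.9 CPM, and its log2 fold change was -0.46 (-0.64 to -0.27). All 10 tested markers of Kupffer cells and macrophages also lay below 0, with a median of -0.56 and summed levels of 166 CPM in KO and 233 in WT. Past 2-fold were 2 of them (*Adgre1* and *Marco*), or 6 with total counts. The share of all tested genes that was 2-fold lower was 9.94%, or 26.6% with total counts. The ratio of *Slc40a1* to the summed marker counts was 0.198 in KO and 0.193 in WT, a difference of 0.04 (-0.16 to 0.24). The part of these cells in the *Slc40a1* value was not tested.

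*Slc39a14* (ENSMUSG00000022094, chr14:70303469-70351425, minus strand) encodes ZIP14, which imports iron that is not bound to transferrin. It had 916 counts in KO and 1784 in WT, or 85.2 and 110 CPM, and its log2 fold change was -0.37 (-0.49 to -0.25). The exporter *Slc40a1* differed from this importer by -0.09 (-0.30 to 0.13), within counting error.

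The 3 genes with a hairpin in the 5′ UTR stood at -1.24, -0.60 and -0.46, and *Tfrc*, with hairpins in the 3′ UTR, at -0.94. Over all tested genes with such a hairpin, the median with TMM was -0.01 for the 5′ UTR (28 genes, 3 of them 2-fold lower and 1 higher) and -0.07 for the 3′ UTR (97 genes, 6 lower and 5 higher). These genes include the members, and over all tested genes 9.94% were 2-fold lower and 9.46% higher. Of the iron regulatory proteins and the genes around them, *Aco1*, which encodes iron regulatory protein 1, had 903 counts in KO and 1683 in WT (-0.31, -0.42 to -0.19) and *Ireb2*, which encodes the second such protein, stood at 0.21 (-0.01 to 0.43), and at -0.39 with total counts. None of the 4 tested genes of that list was past 2-fold, but with total counts *Epas1*, which encodes a hypoxia-inducible factor, was 2-fold lower at -1.18.

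The miRNA targeted by the knockout is shown with the places in these mRNAs that match its seed, because they are where it could pair with members. Capitals mark the seed, bases 2 to 8, and its matches. The mature sequence is from RefSeq, and the site windows are from the 3′ UTRs of GENCODE M21.
miR-182-5p, chr6:30165962-30165986, minus strand: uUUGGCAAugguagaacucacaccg
*Tfrc*, chr16:32632674-32632702, plus strand: ttggtttggacTTGCCAAcctatactgtc
*Slc39a14*, chr14:70305182-70305210, minus strand: gtactgaatcaTTGCCAAtccctgagtct
The 7-base match TTGCCAA was found in 2 of 9 members, against 11.44% of 21019 genes with a 3′ UTR. Both members were lower in KO, at -0.94 and -0.37, where 8 of the 9 members lay below 0. Their 3′ UTRs, of 2461 and 3200 bases, are the longest of the 9, and the share over all genes was not matched for length. The 8-base match TTGCCAAA, found in 4.46% of genes, was in 0 of 9.

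Of the other genes of iron handling, 63 of 66 tested in the 7 pathway lists were within 2-fold, as were 10930 of all 13561 tested genes. In the lists 1 gene was 2-fold higher and 2 were 2-fold lower, with a median of -0.08, against 9.46% and 9.94% of all genes. With total counts 0 were higher and 12 lower, against 4.6% and 26.6%. Of 12 genes of iron uptake and heme scavenging none was past 2-fold (median -0.16). *Hp*, the hemoglobin carrier haptoglobin, had 106369 counts in KO and 133448 in WT (0.27, 0.25 to 0.28, and -0.34 with total counts). *Hpx* of the same list had 105025 and 155623 (0.03, 0.01 to 0.04, and -0.58 with total counts). With total counts 3 of the 12 were 2-fold lower: *Cd163*, *Steap2* and *Steap4*. Of 4 genes of storage, ferroxidases and export none was past 2-fold under either scaling (median 0.15, and -0.45 with total counts), and *Cp*, the ferroxidase ceruloplasmin, stood at 0.12, and at -0.48 with total counts. *Ncoa4*, the receptor that delivers ferritin to lysosomes, stood at 0.92 (0.34 to 1.52), with 58 counts in KO and 46 in WT.

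With TMM, none of 12 genes of heme synthesis and breakdown was past 2-fold (median -0.08). *Alad*, the second enzyme of heme synthesis, stood at -0.33, with 2362 counts in KO and 4482 in WT. Of 11 genes of mitochondrial iron and iron-sulfur cluster assembly, *Lyrm4*, a partner of the cysteine desulfurase, was 2-fold lower, with 24 counts in KO and 79 in WT (-1.11, -1.85 to -0.45), and *Fdx1*, an electron carrier, stood at -0.12. The set that the authors' annotation assigns to iron ion homeostasis includes members. Of its 74 genes 55 were tested, with 2 higher (*Alas2* and *Slc22a17*), 2 lower (*Ftl1* and *Nubp1*) and a median of -0.18. With total counts 0 of the 55 were higher and 16 lower, with a median of -0.78. Without the members 47 of 66 were tested, with 2 higher, 1 lower and a median of -0.15. Total counts gave 0 higher and 11 lower for these, with a median of -0.75. Among all tested genes 9.46% were higher and 9.94% lower, or 4.6% and 26.6% with total counts.

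**Figure D3:**
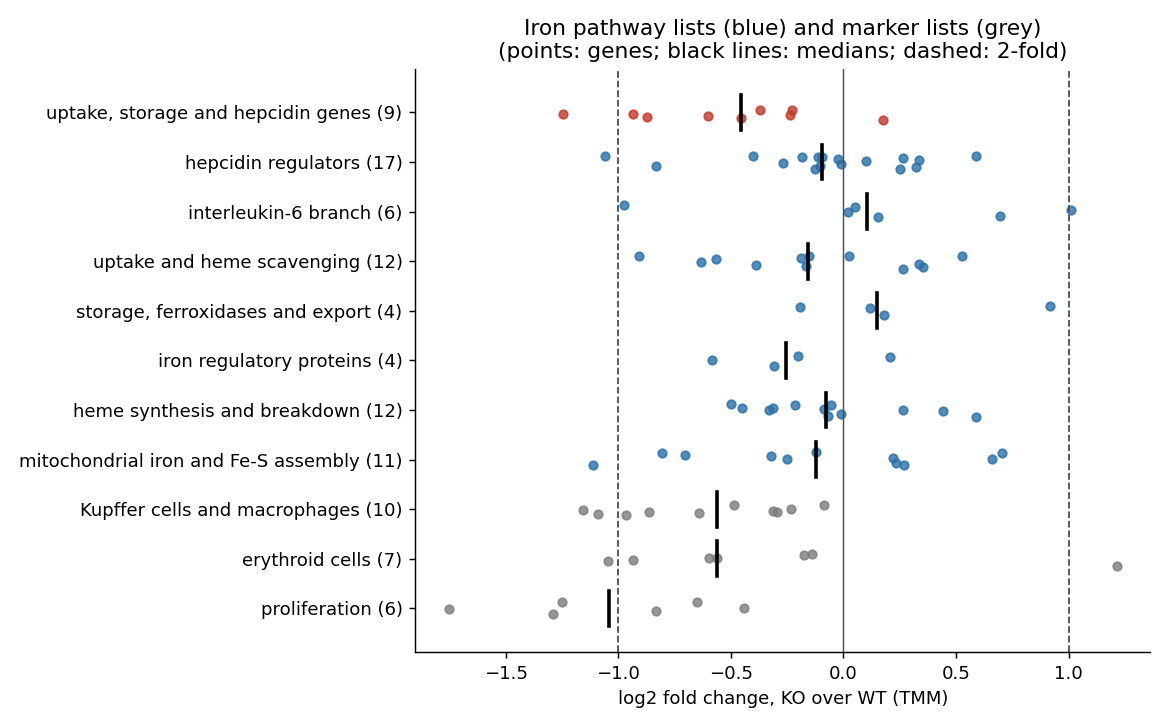
Log2 fold change of KO over WT (TMM) for each tested gene of the 9 uptake, storage and hepcidin genes (red), the 7 iron pathway lists (blue) and 3 marker lists (grey), with medians as black lines and 2-fold as dashed lines. The pathway lists have medians from -0.25 to 0.15, and the proliferation markers have a median of -1.04.

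A scaling factor moves the log2 fold changes of all genes nearly alike, so their order is fixed by its construction. The median shift of all genes between TMM and total counts was -0.60, and each member moved by about that much, from -0.24 to -0.84 for *Hamp* and from -0.87 to -1.47 for *Trf*. With DESeq2's size factors and the upper quartile the values stayed close to those of TMM.

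**Figure D4:**
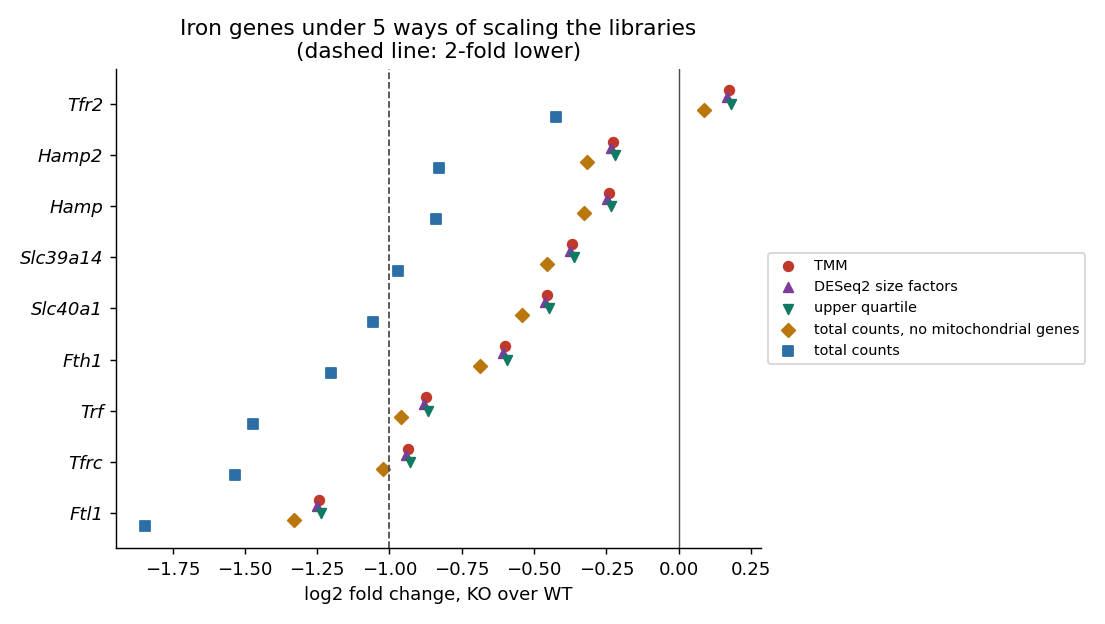
Log2 fold change of KO over WT for each of the 9 genes under 5 ways of scaling the libraries, with a dashed line at 2-fold lower. Total counts (squares) place all 9 genes below 0 and 5 of them past the line, and *Ftl1* is past the line under all 5.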

How the data were processed

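Poly(A)-selected mRNA of liver gave 1 KO and 1 WT library. The table deposited by the authors holds raw counts of each gene, not normalized, with FPKM beside them, scaled by the total count. The submitters' processing notes name HISAT2 2.0.4, StringTie, edgeR and the human build hg38, while the identifiers are of mouse; 7 of the 9 genes have the span given in GENCODE M21 (GRCm38), and *Hamp2* and *Fth1* differ there. The lengths behind the deposited FPKM exceed the transcripts for most genes with several transcripts, so levels per kilobase use GENCODE transcript lengths.

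Counts were scaled by TMM (edgeR 4.0.16, R 4.3.3; DESeq2 1.42.0 as alternative; Python 3.11.15, scipy 1.17.1). Log2 fold changes used a prior count of 0.5. Intervals are exact 95% binomial for fold changes, Poisson for levels and a normal approximation for ratios. A gene was past 2-fold where its log2 fold change reached 1 or -1. Other scalings, FPKM, another prior count, other minimums and assumed variation between mice were tried as alternatives. Steps were tested on simulated data. Genes and lists were chosen with earlier results of these data known. Genes named are the 9 members, pathway genes past 2-fold with at least 20 counts in the higher library, the gene with the highest mean FPKM in each list, and copies of members. *Hfe*, *Hfe2*, *Tmprss6*, *Bmp6*, *Il6*, *Stat3*, *Il6ra*, *Ireb2* and *Ncoa4* were named for their role, and genes past 2-fold with total counts or in marker lists for that, after their values were seen. *Atoh8*, *Smad6*, *Smad7*, *Saa1*, *Saa2* and *Hpx* were named beside another gene of their list, also after their values were seen.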

Additional observations from a re-analysis of the deposited data

How the results depend on the processing

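Every member kept its direction under the alternatives of scaling, filter, prior count and unit, except *Tfr2*, which went from 0.18 to -0.43 with total counts and -0.42 with FPKM. Members 2-fold lower numbered 1 with TMM, 5 with total counts, 5 with FPKM (pseudocount 0.1), 2 with total counts without mitochondrial genes (*Ftl1* and *Tfrc*) and, where the interval also had to leave out 0, 0 with an assumed coefficient of variation of 0.4 between mice and 1 (*Ftl1*) with 0.2. The fold of *Ftl1* is the same there, and only its interval widens. With 0.2 the intervals of *Ftl1*, *Trf* and *Tfrc* left out 0. Those of *Hamp*, *Hamp2*, *Tfr2*, *Fth1*, *Slc40a1* and *Slc39a14* included it, so their direction was not settled there. With 0.4 the interval of every member included 0. Pathway genes 2-fold higher numbered 1 (*Socs3*), and 0 with total counts, without mitochondrial genes, with FPKM, with a prior count of 5 and with a minimum of 1 count. Those 2-fold lower numbered 2, against 12 with total counts and 11 with FPKM. The cause of the scaling differences was not tested. No paired analysis was possible because KO and WT hold 1 library each, and no replicate could be left out. At 91 and 263 counts, *Tfrc* had the widest interval of the 9 genes, which spans 2-fold.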

Other observations

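Among marker lists not set beside a member, sinusoidal endothelial cells had 6 tested genes with a median log2 fold change of -0.44, and *Lyve1*, a hyaluronan receptor, was 2-fold lower with 4 counts in KO and 45 in WT. With total counts 3 of the 6 were 2-fold lower. The share of all tested genes that was 2-fold lower was 9.94% with TMM and 26.6% with total counts. Of 3 tested neutrophil genes none was past 2-fold under either scaling, and their median was 0.15, or -0.45 with total counts. *Alas2* holds an iron-responsive element of the same form in its 5′ UTR and had 535 counts in KO and 347 in WT, a log2 fold change of 1.22 with TMM and 0.61 with total counts, opposite in sign to the globin *Hbb-bs*, with 64 counts in KO and 200 in WT.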
